A study of Mus musculus with 12 samples.

Results

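In livers of iron-overloaded mice, 10 nuclear receptor genes of hepatocytes were followed, some encoding sensors of bile acids, lipids, xenobiotics, thyroid hormone or oestrogen. They were taken by symbol from the deposited count table, which holds 55414 Ensembl genes, and all 10 were found: Nr1i2 (PXR), Nr1i3 (CAR), Nr1h3 (LXRα), Nr1h4 (FXR), Nr0b2 (SHP), Nr5a2 (LRH-1), Ppara, Rxra, Esr1 and Thrb. The sequencing experiment of the study used 12 female C57BL/6J mice aged 8 to 12 weeks, without transgene, in 4 groups of 3. The first i.p. injection was 0.9% NaCl or 300 mg/kg iron sulfate (FeSO4), and the second, 6 h later, was PBS or 10 mg/kg dexamethasone (DEX), a synthetic glucocorticoid. Livers were taken 2 h after the second injection. The groups are written NaCl/PBS, NaCl/DEX, FeSO4/PBS and FeSO4/DEX. Whole liver was sequenced, so every value is a mean over all its cell types.

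Nuclear receptors are transcription factors that bind a lipid-like ligand and then exchange corepressors for coactivators at their target genes. PXR, CAR, LXRα, FXR, PPARα and the thyroid hormone receptor THRB bind DNA together with a shared partner, RXRα, the product of Rxra. SHP lacks a DNA-binding domain and represses other receptors, while LRH-1 binds DNA as a monomer and is a partner of SHP in the control of bile acid synthesis. In liver, FXR and SHP limit bile acid synthesis, LXRα controls cholesterol export and lipogenesis, PPARα drives fatty acid oxidation in fasting, and PXR and CAR induce drug-metabolizing enzymes.

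The promoters of 3 genes are shown here, those of the xenobiotic receptor pair, whose mRNA levels moved in opposite directions in the results that follow, and that of Nr0b2, whose product and that of Nr5a2 act together. Each holds the 250 bases before and 50 bases after the annotated start (GENCODE vM39 on GRCm39, which is mm39), written 5′ to 3′ in the direction of the gene. The start is that of the Ensembl canonical transcript, which for Nr1i3 is chr1:171041539 and lies inside the gene span. Capitals mark the motifs found, which were searched on both strands: the E-box CACGTG bound by clock factors, the AP-1 element TGACTCA, the LRH-1 half-site TCAAGG, the nuclear receptor half-site AGGTCA and the glucocorticoid receptor half-site AGAACA. The last 3 letters of TCAAGG are the first 3 of AGGTCA, so that these can overlap, and TCAAGG was added after the Nr0b2 sequence had been read. Nr1i3 spans chr1:171041506-171048270 (plus strand), with the promoter chr1:171041289-171041588.
Nr1i3 promoter: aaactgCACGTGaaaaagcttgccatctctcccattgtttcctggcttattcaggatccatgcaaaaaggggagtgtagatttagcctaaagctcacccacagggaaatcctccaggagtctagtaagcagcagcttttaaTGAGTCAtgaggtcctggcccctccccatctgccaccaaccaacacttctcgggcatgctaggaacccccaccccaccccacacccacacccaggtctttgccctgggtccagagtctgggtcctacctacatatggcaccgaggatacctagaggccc
Nr1i2 spans chr16:38068685-38115216 (minus strand), with the promoter chr16:38115167-38115466.
Nr1i2 promoter: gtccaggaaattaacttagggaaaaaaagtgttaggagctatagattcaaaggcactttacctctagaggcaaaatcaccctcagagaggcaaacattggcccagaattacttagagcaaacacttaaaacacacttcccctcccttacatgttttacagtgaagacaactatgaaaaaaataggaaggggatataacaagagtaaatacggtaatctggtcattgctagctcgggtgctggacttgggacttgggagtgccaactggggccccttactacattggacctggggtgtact
Nr0b2 spans chr4:133280678-133283847 (plus strand), with the promoter chr4:133280428-133280727.
Nr0b2 promoter: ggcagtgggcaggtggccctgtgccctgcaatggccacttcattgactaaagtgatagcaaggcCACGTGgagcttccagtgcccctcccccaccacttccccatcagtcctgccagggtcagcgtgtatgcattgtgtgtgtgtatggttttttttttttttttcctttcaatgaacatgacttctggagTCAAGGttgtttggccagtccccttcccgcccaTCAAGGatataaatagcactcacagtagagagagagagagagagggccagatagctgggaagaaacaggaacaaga

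Positions count from the annotated start. The Nr1i3 promoter held an E-box beginning at -244 and an AP-1 element on the reverse strand beginning at -109, and that of Nr0b2 an E-box at -186 and LRH-1 half-sites at -59 and -26. None of the 5 motifs was found in the window of Nr1i2. Over all 10 promoters, the E-box was present in 3, against 9.68% of 13818 promoters of tested genes, and each of the other motifs in 1, against 3.89% for TGACTCA, 13.2% for TCAAGG, 14.0% for AGGTCA and 13.7% for AGAACA. A match of letters is a description and not evidence of binding.

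Between 16335651 and 23827340 reads per liver were counted on genes. All 10 receptor genes were among the 13857 genes with enough counts to be tested, and the lowest value among them was 23 reads, for Nr0b2 in FeSO4/PBS mouse 1. Counts are given below as normalized counts, scaled by edgeR's TMM factors to the mean library, and differences as the log2 fold change (LFC) of edgeR's quasi-likelihood test, with its standard error (SE) and its p adjusted by the Benjamini-Hochberg method over all tested genes (edgeR FDR). Genes with an FDR of 0.05 or less were called. FeSO4/PBS mouse 1 stood apart from its group: the chi-square per gene was 89.5 and 71.4 against the other 2 mice, which differed by 24 from each other, and 18.3 to 37 in the other groups. Hepatocyte identity was evident in every liver, with 8 hepatocyte markers summing to 2021000 to 2373000 normalized counts in NaCl/PBS and 2561000 to 2937000 in FeSO4/PBS mice (4 of 8 called higher after FeSO4 and 0 lower, but 1 and 1 with library size alone and 2 in all without NaCl/PBS mouse 1 or FeSO4/PBS mouse 1). In the same comparison, in which 54.5% of all tested genes were called, all 8 Kupffer cell markers were lower (sum 8652 to 9910 before, 4675 to 5426 after), 5 of 6 tested neutrophil markers were higher (116 to 299 against 777 to 936), and 6 of 8 endothelial markers were called (2 higher and 4 lower). Of stellate, cholangiocyte, lymphocyte and mesothelial or acinar markers, 4 of 8, 2 of 5, 2 of 5 and 1 of 3 were called, shares below that of all genes. With 1 mouse left out, stellate calls fell to 2 (without NaCl/PBS mouse 1 or 3 or FeSO4/PBS mouse 3), cholangiocyte calls to 1 (without NaCl/PBS mouse 3) and mesothelial or acinar calls to 0 (without NaCl/PBS mouse 3 or FeSO4/PBS mouse 1 or 3). Lymphocyte calls fell to 0 without NaCl/PBS mouse 1 or 3 or FeSO4/PBS mouse 2 or 3, and rose to 3 without FeSO4/PBS mouse 1, NaCl/DEX mouse 1 or 3 or FeSO4/DEX mouse 1. The markers Cldn4, Ly6g, Nkg7, Ncr1, Wt1, Cpa1, Ctrb1, Pnlip and Cel had too few counts to be tested. In whole liver, fewer cells of a type and less RNA per cell cannot be told apart.

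In control livers, Nr1i3 and Rxra were the most abundant of the 10 mRNAs. RPKM corrects for library size and for the merged length of all annotated exons of a gene. The order of genes rests on that length. On this scale, Nr1i3 stood at 75.8 ± 14.8 (SD, n = 3) and Rxra at 68.3 ± 4.96 (SD, n = 3) in NaCl/PBS mice, with overlapping ranges. Nr1i2, Ppara and Nr1h4 followed at 24.6, 23.7 and 23.2 RPKM and could not be ordered beyond their spread, and Nr1h3, at 16.2, lay clear of its neighbours. The lowest levels were those of Nr5a2 (7.94) and Nr0b2 (7.91), which overlapped, and of Thrb (3.72) and Esr1 (3.40), which did not. After FeSO4 the order changed: Rxra stood at 64.1 ± 3.53 (SD, n = 3), Nr1i2 was next at 33.3 ± 3.89 (SD, n = 3), and Nr1i3 had come down to 15.6 ± 4.11 (SD, n = 3), a level it shared with Nr1h4 (15.6) and, within the spread, Ppara (11.1). Nr0b2 was then the lowest, at 1.73 RPKM, within the spread of Thrb at 1.78.

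**Figure D1:**
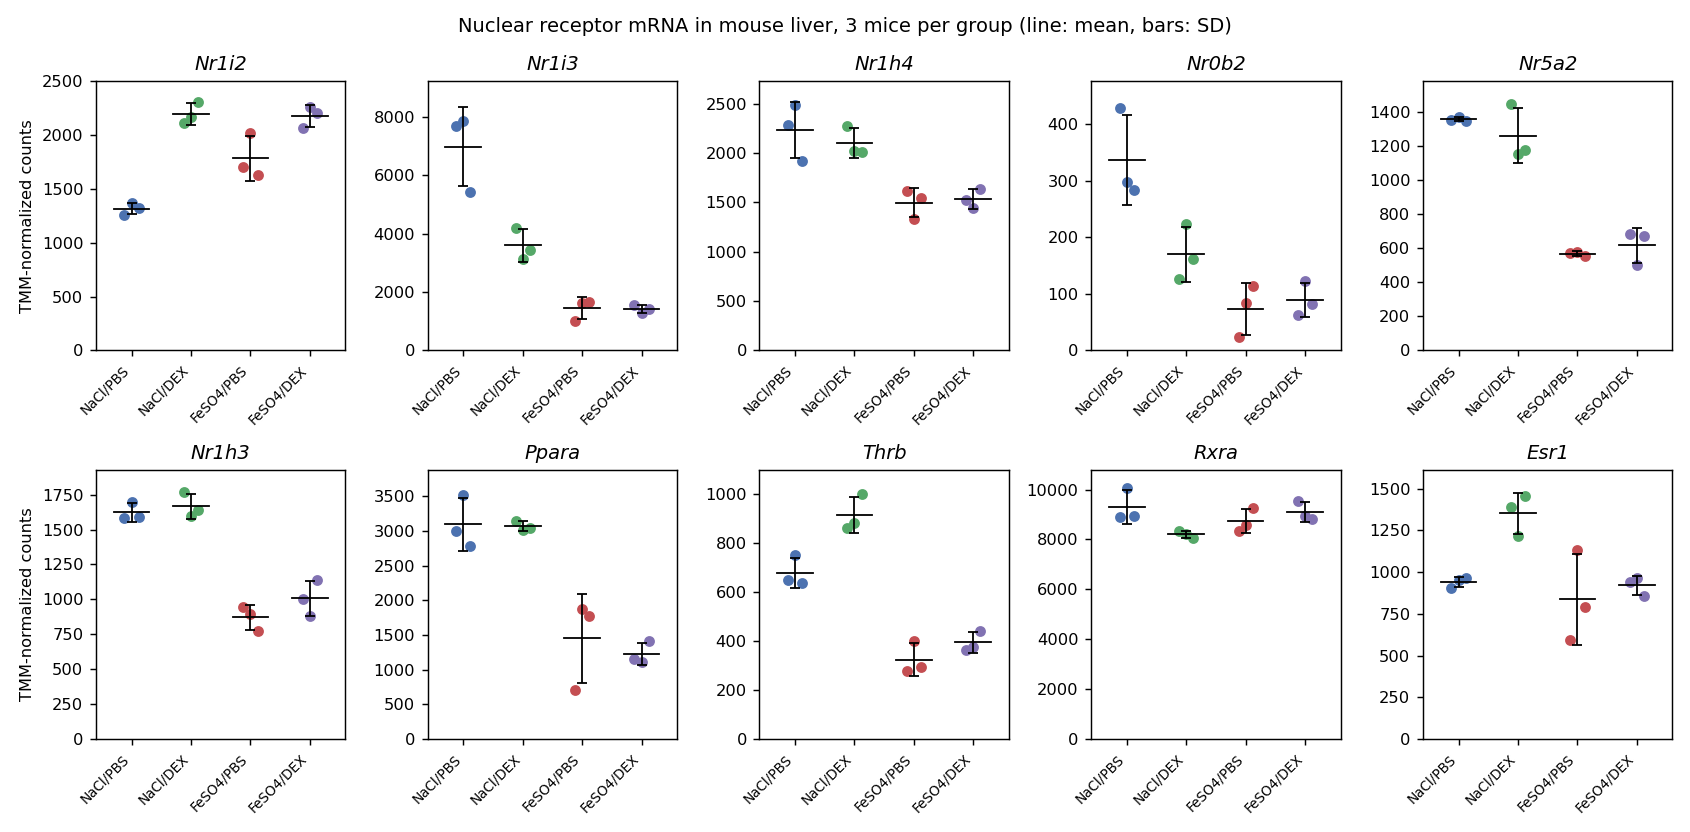
Normalized counts (vertical axes, linear, from 0) of the 10 receptor genes in each mouse (points) of the 4 groups (horizontal axes), with the mean (line) and SD (bars) of 3 mice. Nr1i2 is the gene whose treated groups all lie above NaCl/PBS, Rxra stays between 8061 and 10082 in all 12 mice, and each of the 7 genes called lower after FeSO4 has every FeSO4 mouse below every NaCl mouse.

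The effect of iron overload was taken from FeSO4/PBS against NaCl/PBS mice. Of the 10 receptor genes, 1 rose (Nr1i2), 7 fell (Nr1i3, Nr1h3, Nr1h4, Nr0b2, Nr5a2, Ppara and Thrb) and 2 were not called (Rxra and Esr1). These calls stand against a broad response, in which 54.5% of all tested genes were called, 27.2% higher and 27.3% lower. Beyond an LFC of 1 in size, 5 of the 10 were lower, compared with 14.7% of tested genes. The median LFC was -0.98 over the 10 and -0.02 over all tested genes. In 8 of the 10 the groups did not overlap, as in 60% of tested genes. Had libraries been scaled by size alone, the median of all genes would have been -0.34, no receptor gene would have been called higher and 9 would have been lower, and the share of higher genes among all called would have been 28.2% in place of 49.9%.

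Nr1i2 and Nr1i3, the xenobiotic receptor pair, moved apart after FeSO4. PXR, the product of Nr1i2, is activated by steroids and drugs, and had 1259, 1368 and 1323 normalized counts in NaCl/PBS livers, against 1703, 2018 and 1625 in FeSO4/PBS livers. All FeSO4/PBS mice were above all controls, with an LFC of 0.44 (SE 0.10, edgeR FDR 0.0028), but with scaling by library size alone the LFC was 0.12 (edgeR FDR 0.33). CAR, the product of Nr1i3, is a constitutively active receptor held in the cytoplasm until drugs release it. Its gene had 7675, 7839 and 5409 normalized counts in NaCl/PBS livers, against 1000, 1637 and 1671 in FeSO4/PBS livers. The lowest control was more than any FeSO4/PBS mouse, and the LFC of -2.28 (SE 0.20, edgeR FDR 8.1e-07) left 20.6% of the control level. Exons of Nr1i3 overlap those of Tomm40l on the other strand, and which strand was counted is not stated.

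The ratio of Nr1i3 to Nr1i2 RPKM within each liver summarizes this shift. It was 3.55, 3.33 and 2.38 in NaCl/PBS livers, against 0.34, 0.47 and 0.60 in FeSO4/PBS livers. The ratio was thus above 1 in every control liver and below 1 in every FeSO4/PBS liver. Its absolute level depends on the exon lengths used, 4644 bases for Nr1i3 and 2702 for Nr1i2, with all annotated exons merged. By normalized counts, without length, FeSO4/PBS mouse 3 had 1671 for Nr1i3 and 1625 for Nr1i2. Which mRNA of the pair was the more abundant after FeSO4 is therefore not settled. In the NaCl/DEX mice the ratio was 1.16, 0.84 and 0.87, and in the FeSO4/DEX mice 0.44, 0.33 and 0.37. These values lay between those of the control and FeSO4/PBS mice in the first case and within the range of the FeSO4/PBS mice or just below it in the second.

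**Figure D2:**
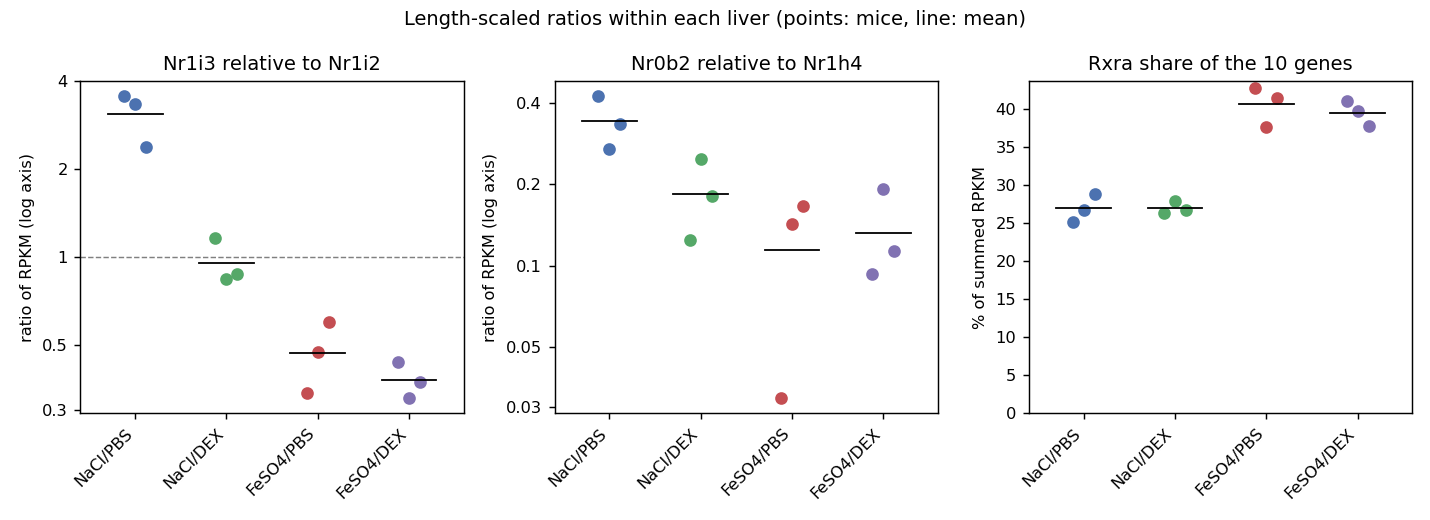
Ratio of Nr1i3 to Nr1i2 RPKM (left, log axis, dashed line at 1), ratio of Nr0b2 to Nr1h4 RPKM (middle, log axis) and Rxra as percent of the summed RPKM of the 10 genes (right, linear axis from 0) in each mouse (points), with the mean of 3 mice (line). Every NaCl/PBS mouse is above 1 in the left panel and every FeSO4 mouse below it, and the Rxra share is 37.7% or more in every FeSO4 mouse and 28.8% or less in every NaCl mouse.

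In the bile acid axis, Nr1h4, Nr0b2 and Nr5a2 all fell after FeSO4. FXR binds bile acids, and its gene Nr1h4 had 2282, 2489 and 1925 normalized counts in NaCl/PBS livers, against 1621, 1332 and 1542 in FeSO4/PBS mice. The groups did not overlap, and the LFC of -0.58 (SE 0.12, edgeR FDR 0.0011) was the smallest of the 7 falls. SHP is induced by FXR and represses the genes of bile acid synthesis. Nr0b2 had 429, 297 and 284 normalized counts in NaCl/PBS livers, against 23.2, 84.4 and 114 in FeSO4/PBS mice. Every FeSO4/PBS mouse was below every control, and mouse 1, with 23 reads, was the lowest of all 12. The LFC was -2.21 (SE 0.40, edgeR FDR 3.9e-04), and it lay between -2.64 and -1.77 when any 1 of the 12 mice was left out. The ratio of Nr0b2 to Nr1h4 RPKM was 0.42, 0.27 and 0.33 in NaCl/PBS and 0.03, 0.14 and 0.17 in FeSO4/PBS mice. Nr0b2 was thus also lower relative to Nr1h4 in each FeSO4/PBS liver. The same held after DEX without iron, with ratios of 0.12, 0.25 and 0.18 in NaCl/DEX mice. In FeSO4/DEX mice the ratios were 0.09, 0.19 and 0.11.

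LRH-1 activates Cyp7a1 and Nr0b2, and its gene had the least relative spread of the 10 within each of the PBS groups, though not within the DEX groups. Nr5a2 had 1354, 1371 and 1347 normalized counts in NaCl/PBS livers, against 571, 578 and 553 in FeSO4/PBS livers. This was an LFC of -1.26 (SE 0.13, edgeR FDR 2.6e-06), or 41.8% of the control level, and ranged only from -1.27 to -1.24 with each mouse left out. An lncRNA lies opposite to Nr5a2 with overlapping exons.

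Among the lipid sensors, Nr1h3 and Ppara fell to about the same degree. LXRα, which binds oxysterols, is expressed in hepatocytes and in macrophages. Nr1h3 had 1582, 1700 and 1586 normalized counts in NaCl/PBS livers, against 946, 897 and 774 in FeSO4/PBS mice, without overlap, and an LFC of -0.89 (SE 0.11, edgeR FDR 2.1e-05). The 8 Kupffer cell markers fell in the same mice, with a median LFC of -0.999, and their part in the fall of Nr1h3 was not tested. Exons of Nr1h3 overlap Acp2 on the other strand and the lncRNA Gm13783 on its own strand, so that reads there cannot always be assigned to 1 gene. PPARα binds fatty acids. Ppara had 2991, 3521 and 2777 normalized counts in NaCl/PBS livers, against 712, 1873 and 1775 in FeSO4/PBS mice. All FeSO4/PBS mice lay below the controls, and mouse 1 stood well below the other 2. The LFC was -1.09 (SE 0.26, edgeR FDR 0.0026), and -0.76 without that mouse. Cdpf1 shares exonic positions with Ppara on the other strand.

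Of the hormone receptors, Thrb fell and Esr1 was not called. THRB is the main thyroid hormone receptor of hepatocytes. Thrb had 649, 749 and 635 normalized counts in NaCl/PBS livers, against 277, 402 and 293 in FeSO4/PBS livers. The fall was by an LFC of -1.06 (SE 0.14, edgeR FDR 3.6e-05), without overlap. An lncRNA on the other strand overlaps exons of Thrb. ERα, encoded by Esr1, is the main oestrogen receptor of the liver. Esr1 had 906, 951 and 962 normalized counts in NaCl/PBS livers, against 593, 1130 and 789 in FeSO4/PBS mice, of which 1 lay above and 2 below all controls. Its LFC of -0.17 (edgeR FDR 0.44) had a 95% interval from -0.54 to 0.21. Without FeSO4/PBS mouse 1 it was 0.04 (edgeR FDR 0.84), and without mouse 2 it was -0.44 (edgeR FDR 0.016).

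Rxra, the shared partner, was not called. It had 8899, 10082 and 8927 normalized counts in NaCl/PBS livers, against 8340, 8579 and 9265 in FeSO4/PBS mice, and these ranges overlapped. The LFC was -0.09 (edgeR FDR 0.46) with a 95% interval from -0.31 to 0.12, although with library size alone it was -0.41 (edgeR FDR 0.0048). As a share of the summed RPKM of the 10 genes, Rxra made up 25.2% to 28.8% in NaCl/PBS and 37.7% to 42.8% in FeSO4/PBS mice. The sum of the other 9 was 162 to 203 RPKM in NaCl/PBS and 82 to 104 RPKM in FeSO4/PBS mice.

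**Figure D3:**
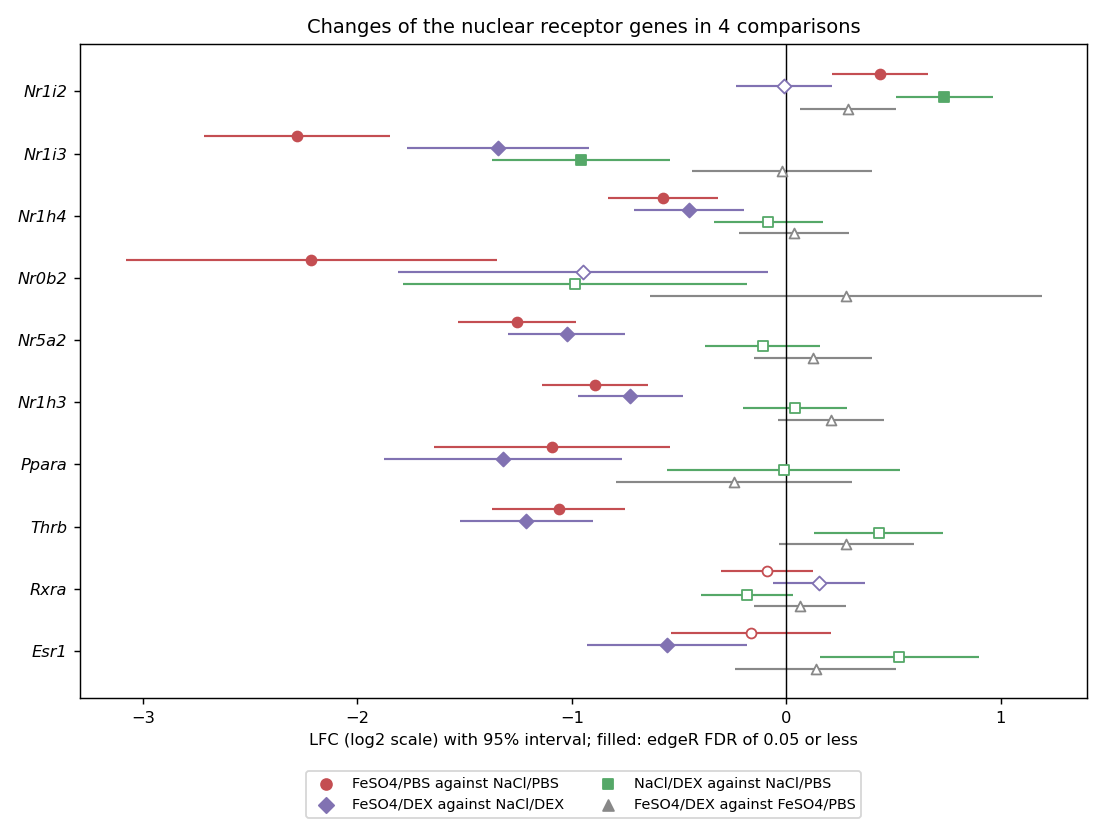
LFC (horizontal axis, log2 scale) with its 95% interval of the 10 receptor genes (rows) in 4 comparisons between groups of 3 mice. Filled symbols were called. The FeSO4 effect is filled for 8 genes in mice given PBS and for 7 in mice given DEX, the DEX effect for Nr1i2 and Nr1i3 in NaCl mice and for none of the 10 in FeSO4 mice.

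The DEX response was first taken from mice without iron, NaCl/DEX against NaCl/PBS. It was narrower, with 13.7% of tested genes called, and called 2 of the 10 receptor genes, the xenobiotic pair, 1 higher and 1 lower (6.5% and 7.15% of tested genes). The NaCl/PBS mice are the controls of this comparison as well as of the FeSO4 effect, so that the 2 share their control samples. Nr1i2 rose to 2109, 2165 and 2308 normalized counts, above each NaCl/PBS and FeSO4/PBS mouse (LFC 0.74, SE 0.10, edgeR FDR 3.0e-04). Nr1i3 fell to 4199, 3124 and 3453 normalized counts, below every NaCl/PBS mouse and above every FeSO4 mouse, with an LFC of -0.96 (SE 0.19, edgeR FDR 0.0043). Both kept an FDR of 0.05 or less in each of the 19 other fits. Without overlap between groups were 6 of the 10 (3 higher and 3 lower), against 37.9% of tested genes. With library size alone, the share of higher genes among all called was 25.8% in place of 47.6%, and 3 of the 10 were called.

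At an unadjusted p under 0.05 there were 5 of the 10, beside 26.8% of tested genes, and 3 of them were not called in the fit of all libraries. Thrb had 862, 879 and 999 normalized counts in NaCl/DEX mice, all above the NaCl/PBS mice (LFC 0.43, edgeR FDR 0.057). Esr1 had 1391, 1216 and 1454, also without overlap (LFC 0.53, edgeR FDR 0.060). Nr0b2 had 126, 223 and 161, all below the NaCl/PBS mice (LFC -0.99, SE 0.37, edgeR FDR 0.10). All of them passed when only the libraries compared were fitted, with edgeR FDRs of 0.011, 0.0023 and 0.013, and also without FeSO4/PBS mouse 1. Rxra had an LFC of -0.18 (edgeR FDR 0.27), and Nr1h3, Nr1h4, Nr5a2 and Ppara had LFCs between -0.11 and 0.04 with intervals that included 0. For Ppara the interval ran from -0.56 to 0.53, wider than the -0.20 to 0.28 of Nr1h3.

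In FeSO4 mice, DEX called none of the 10 receptor genes, and none of the 13857 tested genes with edgeR (percent called 0). At an unadjusted p under 0.05, edgeR had 1 of the 10 and 900 genes in all, or 6.49%. That 1 gene was Nr1i2, which had 2061, 2265 and 2208 normalized counts in FeSO4/DEX against 1703, 2018 and 1625 in FeSO4/PBS mice, without overlap (9.3% of tested genes) and with an LFC of 0.29 (SE 0.10, edgeR FDR 0.71). The FeSO4/DEX values of Nr1i2 were thus about as high as those of NaCl/DEX mice (2109 to 2308). For Nr1i3, FeSO4/DEX mice had 1542, 1280 and 1419 normalized counts, inside the range of the FeSO4/PBS mice, and an LFC of -0.02 with a 95% interval from -0.44 to 0.40. DESeq2 also called 0 of the 10 in this comparison. Over all genes, the paper, which used DESeq2, reported a few as raised or lowered by DEX in FeSO4 mice. The 0 over all tested genes is thus a result of the edgeR fit.

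Whether DEX acted differently in FeSO4 and NaCl mice was tested as the difference between both DEX responses. None of the 10 was called, against 6.18% of all tested genes. With an unadjusted p under 0.05 there were 3 of the 10, compared with 20.4% of tested genes. They were Nr1i3 (difference 0.94, edgeR FDR 0.062), Nr1i2 (-0.45, edgeR FDR 0.093) and Nr0b2 (1.26, edgeR FDR 0.22). In DESeq2, Nr1i3 and Nr1i2 passed, with adjusted p-values of 0.031 and 0.018. With library size alone, 63.7% of the genes called in this test had the higher value in FeSO4 mice, with DESeq2's size factors 41.7%, and in the fit reported 48.3%.

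The effect of FeSO4 was also measured in mice that received DEX, as FeSO4/DEX against NaCl/DEX. Here 7 of the 10 fell and none rose, beside 43.3% of tested genes called and 20.9% called lower. Beyond an LFC of 1 in size there were 4 of the 10, against 9.83%, and 9 of the 10 did not overlap, against 55.9%. With library size alone, the share of higher genes among all called was 34.2% in place of 51.7%. The largest falls were those of Nr1i3 (LFC -1.34), Ppara (-1.32), Thrb (-1.21) and Nr5a2 (-1.02), followed by Nr1h3 (-0.73), Esr1 (-0.56) and Nr1h4 (-0.45). Thrb had 364, 375 and 442 normalized counts in FeSO4/DEX mice and Ppara 1148, 1116 and 1413, each below all NaCl/DEX mice (862 to 999 and 3012 to 3148). Esr1 was called in these mice, with 941, 964 and 857 normalized counts against 1391, 1216 and 1454 (edgeR FDR 0.019), but not without NaCl/DEX mouse 1 (edgeR FDR 0.051), NaCl/DEX mouse 3 (0.063) or FeSO4/DEX mouse 3 (0.056). Nr0b2 (LFC -0.95, edgeR FDR 0.070), Rxra (0.15, edgeR FDR 0.24) and Nr1i2 (-0.01, edgeR FDR 0.94) were not called. This comparison and that of FeSO4/PBS with NaCl/PBS have no mice in common.

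Target genes of the receptors were followed in lists written from their known functions. In FeSO4/PBS against NaCl/PBS mice, targets and effectors of the FXR and SHP axis were called in both directions, with 3 higher and 3 lower of 14 tested and a median LFC of -0.09. These are 42.9% of the list, below the 54.5% of all tested genes. Cyp7a1, the rate-limiting enzyme of bile acid synthesis, had 6284, 7360 and 7236 normalized counts in NaCl/PBS and 104, 153 and 65.0 in FeSO4/PBS mice. No other gene on the 5 target lists fell as far (LFC -6.01, SE 0.49, edgeR FDR 3.6e-07). Slco1b2, a bile acid and drug uptake transporter, fell (LFC -1.18, edgeR FDR 5.3e-04), and Cyp27a1, which starts the alternative route of bile acid synthesis, rose (LFC 0.56, edgeR FDR 6.8e-04), a call lost with library size alone. The bile salt exporter Abcb11 (LFC -0.29, edgeR FDR 0.18) and Cyp8b1, which makes cholic acid (0.48, edgeR FDR 0.11), were not called. Scaling by library size alone gave 1 higher and 7 lower.

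Targets of LXR included 5 genes that rose and 2 that fell of 13 tested, with a median LFC of 0.12. The share called, 53.8%, was about that of all tested genes (54.5%). Abca1, a cholesterol exporter, had 3238, 3174 and 3291 normalized counts in NaCl/PBS and 11425, 12596 and 11308 in FeSO4/PBS mice, and rose by an LFC of 1.86 (SE 0.12, edgeR FDR 4.9e-08). Abcg1, another sterol exporter, fell (LFC -1.53, edgeR FDR 2.1e-05), so that these transporters moved in opposite directions. The desaturase gene Scd1 rose (LFC 1.23, edgeR FDR 0.0027), Mylip, whose product degrades the LDL receptor, fell (-0.77, edgeR FDR 0.0060), and Abcg5 (0.12) and Srebf1 (-0.28) were not called. The split was 3 higher and 6 lower with library size alone.

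Among the targets of PPARα, 7 rose, 1 fell and 11 were not called, with a median LFC of 0.26. The share called was 42.1%, below the 54.5% of all tested genes. Pdk4, which restrains glucose oxidation, had 95.7, 149 and 81.3 normalized counts in NaCl/PBS mice and 515, 14233 and 14043 in FeSO4/PBS mice. FeSO4/PBS mouse 1, the one with the lowest Ppara, was also far below the others for Pdk4, and the LFC was 6.47 (SE 0.92, edgeR FDR 5.2e-05) with it and 7.04 without it. Fgf21, a fasting hormone, rose (LFC 3.61, edgeR FDR 8.8e-04) and was highest in that same mouse, with 433 normalized counts beside 72.2 and 255. Vnn1 fell (LFC -0.91, edgeR FDR 0.012, not called without NaCl/PBS mouse 2), while Cyp4a14, a fatty acid hydroxylase gene, had an LFC of 0.32 and was not called. With library size alone, 6 rose and 4 fell.

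Of 16 PXR and CAR targets, 6 rose and 1 fell after FeSO4, with a median LFC of 0.34. This was 43.8% of the list, below the 54.5% of all tested genes. Cyp2b10, the classical CAR target, had 347, 303 and 286 normalized counts in NaCl/PBS and 1285, 1002 and 803 in FeSO4/PBS mice, higher in each although Nr1i3 was lower (LFC 1.72, SE 0.24, edgeR FDR 3.9e-05). Gstm3, a glutathione transferase gene, rose (LFC 1.43, edgeR FDR 0.0037), Cyp3a13 fell (-0.58, edgeR FDR 0.0020), and the exporter gene Abcc3 rose (0.51, edgeR FDR 0.0085) but was lost with scaling by library size alone. Cyp3a11, the classical PXR target, had an LFC of 0.38 (edgeR FDR 0.060). Reads that fit more than 1 near-identical copy of the Cyp3a, Cyp2b and Gstm families cannot be assigned to 1 gene. With library size alone, 5 of these targets rose and 3 fell. In FeSO4/DEX against NaCl/DEX mice the split was different, with 0 of the 16 called higher and 5 lower. That was 31.2% of the list, beside 43.3% of all tested genes, with a median LFC of 0.05. Cyp2b10 was among those lower there (LFC -3.14).

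All 7 genes on the list of thyroid hormone targets were called after FeSO4, 6 higher and 1 lower, with a median LFC of 1.61, beside 54.5% of all tested genes called. Dio1, the deiodinase that activates thyroid hormone, fell from 3130, 3375 and 3364 to 2056, 1629 and 1678 normalized counts (LFC -0.88, edgeR FDR 1.2e-04). Thrsp, a lipogenic gene, rose (LFC 1.85, edgeR FDR 1.3e-04), as did Bcl3 (2.47, edgeR FDR 1.4e-05). Me1, which encodes malic enzyme, had an LFC of 0.61 (edgeR FDR 0.028), but 0.38 (edgeR FDR 0.14) without FeSO4/PBS mouse 1, and was also not called without NaCl/PBS mouse 2 or 3 or with library size alone. The direction of Thrsp was opposite to that of Thrb in the same livers.

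After DEX in NaCl mice, 6 of 16 PXR and CAR targets were higher and 0 lower, beside 6.5% and 7.15% of all tested genes, and 6 were called whichever mouse was left out. Cyp2b10 had 9044, 7153 and 8212 normalized counts in NaCl/DEX mice (LFC 4.70, SE 0.26, edgeR FDR 9.4e-08), and Alas1, the first enzyme of haem synthesis, 36632, 28307 and 32891 (LFC 1.97, edgeR FDR 3.4e-06). Cyp3a11 rose as well (LFC 1.05, edgeR FDR 5.7e-04). In the other lists, 2 of 14 FXR and SHP targets, 2 of 13 LXR targets, 4 of 19 PPARα targets and 2 of 7 thyroid hormone targets were called, which are 14.3%, 15.4%, 21.1% and 28.6% of each list, beside 13.7% of all tested genes. These counts depended on single mice. The PPARα targets fell to 1 without NaCl/PBS mouse 1 or 3 or NaCl/DEX mouse 3, the LXR targets to 1 without NaCl/PBS mouse 2 or 3 or NaCl/DEX mouse 3, and the thyroid hormone targets to 1 without NaCl/PBS mouse 2 or NaCl/DEX mouse 1 or 2. The FXR and SHP targets fell to 1 without any single mouse of the NaCl/PBS, NaCl/DEX or FeSO4/DEX groups. Without FeSO4/PBS mouse 1, the FXR and SHP targets and the LXR targets each rose to 3. The genes called included Srebf1, the lipogenic transcription factor (LFC -1.15), Thrsp (2.34) and the thioesterase gene Acot1 (1.95), whose call was lost without NaCl/PBS mouse 1 or 3 or NaCl/DEX mouse 3. In FeSO4 mice, DEX called none of these target genes with edgeR, and at an unadjusted p under 0.05 there were 1, 2, 0, 0 and 1 in the 5 lists.

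**Figure D4:**
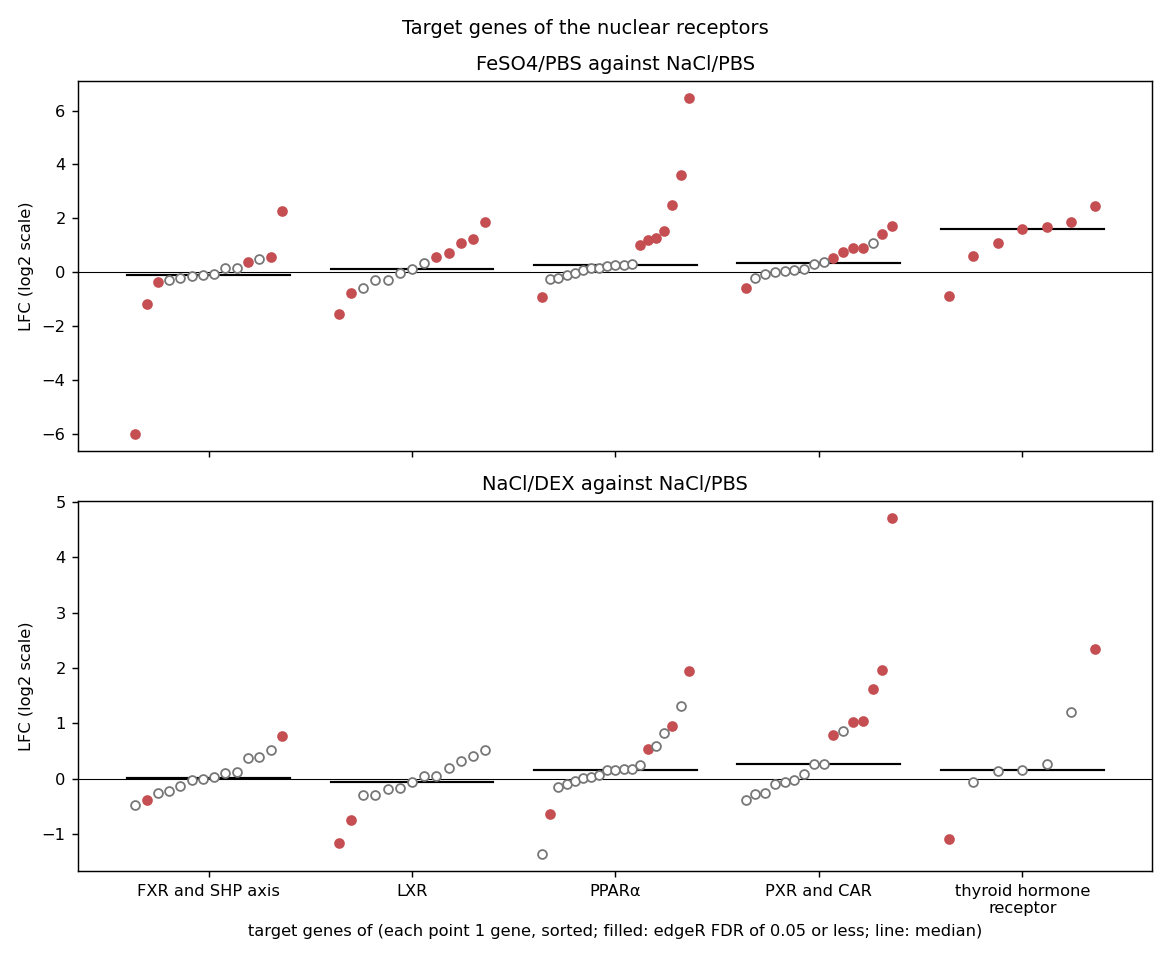
LFC (vertical axes, log2 scale) of each target gene (points, sorted within a list) of 5 receptor lists after FeSO4 (top) and after DEX in NaCl mice (bottom), with the median of each list (lines). Filled points were called. The lowest point at the top is Cyp7a1 at -6.01 and the highest Pdk4 at 6.47, and the highest point at the bottom is Cyp2b10 at 4.70.

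The 10 genes were compared with the other 39 mouse nuclear receptor genes, of which 32 were tested. After FeSO4, 8 of these rose and 14 fell, with a median LFC of -0.36, and with library size alone 5 rose and 16 fell. The share called was 68.8%, beside 54.5% of all tested genes. In FeSO4/DEX against NaCl/DEX mice, 11 of the 32 were higher and 9 lower, with a median LFC of 0.05. There the share called was 62.5%, beside 43.3% of all tested genes. Hnf4a, the master regulator of hepatocyte identity, had 12102, 12151 and 12230 normalized counts in NaCl/PBS and 22307, 23561 and 26046 in FeSO4/PBS mice, and rose by an LFC of 0.98 (edgeR FDR 6.9e-06). The glucocorticoid receptor gene Nr3c1 had 2097, 1727 and 1912 normalized counts in NaCl/PBS and 796, 1218 and 1083 in FeSO4/PBS mice, without overlap (LFC -0.89, edgeR FDR 1.8e-04). This mRNA was not called in FeSO4/DEX against NaCl/DEX mice. For the receptor protein, the paper found no significant difference in liver between NaCl and FeSO4 mice. Beyond these, in FeSO4/PBS against NaCl/PBS mice, Nr4a1, an immediate early gene, rose (LFC 3.24, edgeR FDR 1.6e-04). Ppard, a relative of Ppara, rose as well (1.63, edgeR FDR 5.1e-05). The retinoic acid receptor gene Rarg (-2.96, edgeR FDR 4.0e-07) and the mineralocorticoid receptor gene Nr3c2 (-1.77, edgeR FDR 3.4e-06) fell. In NaCl mice, DEX raised 3 and lowered 6 of the 32, among them the clock receptor Nr1d1 (LFC -2.53, edgeR FDR 2.6e-04), Rarg (-1.87) and Ppard (1.00), the last not called without NaCl/PBS mouse 1 or NaCl/DEX mouse 1. The share called was 28.1%, beside 13.7% of all tested genes.

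**Figure D5:**
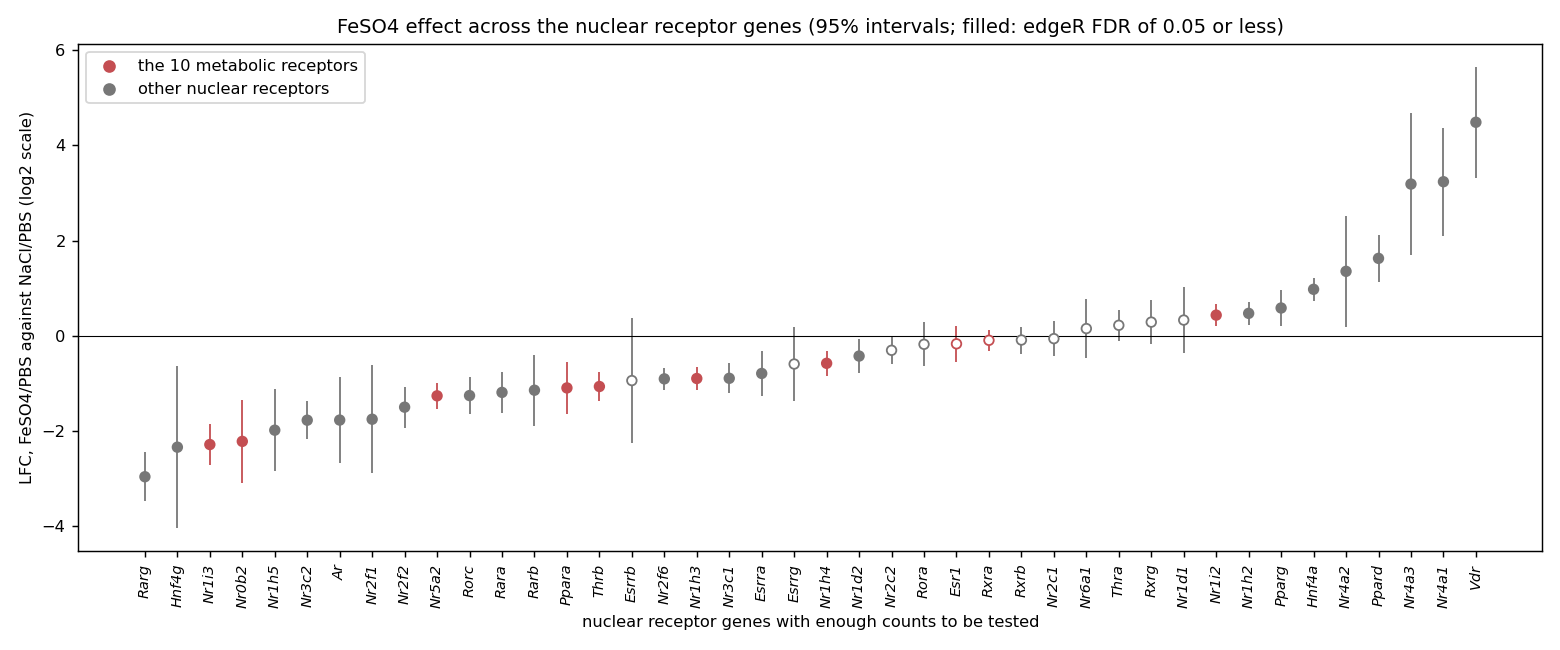
LFC of FeSO4/PBS against NaCl/PBS (vertical axis, log2 scale) with 95% intervals for all tested nuclear receptor genes (horizontal axis, sorted), the 10 metabolic receptors in red. Filled points were called. Of the 10 only Nr1i2 is filled above 0, and Nr1i3 and Nr0b2 are near the lower end at -2.28 and -2.21.

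Coregulators bridge these receptors to chromatin. Of 16 tested, 6 rose and 1 fell after FeSO4, with a median LFC of 0.26, but with library size alone 4 rose and 6 fell. The share called was 43.8%, below the 54.5% of all tested genes. Tbl1xr1, a subunit of the corepressor complex, rose (LFC 1.80, edgeR FDR 1.3e-07), as did Nrip1, a ligand-dependent corepressor (1.64, edgeR FDR 2.2e-05), and the coactivator gene Ncoa3 fell (-0.41, edgeR FDR 0.012). Ppargc1a, a coactivator of PPARα in fasting, had 99.8, 704 and 420 normalized counts in FeSO4/PBS mice beside 264, 220 and 308 in controls, so that mouse 1 was again the lowest. In NaCl mice, DEX raised 4 of the 16 and lowered 0, beside 6.5% of tested genes called higher, but raised 2 with library size alone and called 2 without NaCl/PBS mouse 1 or 3 or NaCl/DEX mouse 1 or 2. Those that rose included Lpin1, a coactivator of PPARα with its own enzyme activity (LFC 2.47, edgeR FDR 5.8e-06), and the acetyltransferase gene Ep300 (1.01, edgeR FDR 5.8e-04).

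For each receptor gene, the genes with the most similar profile over the 12 livers were sought among 8958 well-counted genes. The likeness is given by Pearson's r of log2 CPM, as a description, since all points share the libraries and the group differences. Nr1i3 was most like Zbtb5 (0.993) and the chemokine gene Cxcl12 (0.986), and Nr5a2 most like Mfhas1 (0.993) and Wdfy2 (0.992). For Nr1i2 they were Ddit4 (0.975), a stress- and glucocorticoid-responsive gene, and Cd164 (0.944). The nearest profiles to Nr1h3 were those of Slc26a1 and Supt20 (0.984 each), to Thrb those of Fmo2 (0.980) and Decr2 (0.976), and to Ppara those of Slc35a3 (0.979) and Zfp874a (0.973). Nr1h4 had Trip4 (0.963) and Inpp5b (0.961), Nr0b2 had Kansl1l (0.959) and Pde4c (0.956), and Esr1 had Slc25a13 (0.949) and Arl5b (0.934). Rxra, with the least variation, had the weakest matches, Ifngr2 (0.913) and Ssh2 (0.857).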

How the data were processed

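Liver RNA of 12 mice was measured by RNAseq, with groups taken from the sample labels. According to the study's methods, the authors made mRNA libraries with a stranded kit, sequenced them single-end, ran FastQC, aligned to mm39 by STAR 2.7.10b and kept the reads per gene that STAR gave. The deposited values are whole-number read counts without normalization for 55414 genes, of which 30401 had no read in any liver. Which strand column was used is not given in the sources used here, and strand decides how reads of overlapping genes are assigned.

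The counts of all 12 libraries were fitted in 1 edgeR 4.0.16 quasi-likelihood model (R 4.3.3, limma 3.58.1) with a mean per group, TMM factors and edgeR's filter on low counts, which kept 13857 genes. The common dispersion gave a biological coefficient of variation of 0.169, with 5.93 prior degrees of freedom. Genes were called where the p adjusted over all tested genes (Benjamini-Hochberg) was at most 0.05, for 4 comparisons and the difference between the DEX responses. LFCs used a prior count of 0.125. With 3 mice against 3, a two-sided exact permutation test of a single gene cannot give a p below 0.1. RPKM used the merged length of all exons annotated for a gene in GENCODE vM39, whichever transcripts the liver makes. The same annotation gave symbols for 54749 genes. The log2 CPM for profiles used a prior count of 2. TMM factors were 1.14 to 1.16 in NaCl/PBS, 1.02 to 1.06 in NaCl/DEX, 0.90 to 0.95 in FeSO4/PBS and 0.87 to 0.94 in FeSO4/DEX mice. Within groups, pairs of mice differed by far more than sampling noise, so each library counted as 1 sample. Precision rests on 3 mice a group rather than on depth. The p-values set each difference against a spread between mice that was estimated from all 12 libraries and moderated across genes. The fitting code was tested on simulated data.

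Genes to name were drawn by a rule: the 10 receptor genes, example targets, called genes of the lists, and the 2 nearest profiles. The called genes were the 2 largest rises and 2 largest falls per list in FeSO4/PBS and in NaCl/DEX mice against NaCl/PBS mice. They needed a mean of at least 100 normalized counts in the higher group. Not every gene that the rule gave is described above, or in each comparison. The receptor genes, lists and rules were chosen with earlier results of these data known. Alternatives were DESeq2 1.42.0, other scaling and filters, a replicate block, the compared libraries alone, an LFC beyond 1, and each mouse left out in turn. Promoters were read from GRCm39 with pysam 0.24.0, and figures drawn with matplotlib 3.10.9 (Python 3.11.15, numpy 2.4.6, pandas 2.3.3). The result for 1 listed gene is not reported here.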

Additional observations from a re-analysis of the deposited data

Results flagged for a closer look

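Among 54 genes searched, the 10 receptor genes and those that the naming rule gives, the DEX response after FeSO4 differed from that after NaCl for 12 by the test of the difference itself (edgeR, adjusted over all tested genes), beside 6.18% of all tested genes. None of the 12 was a receptor gene. Many of them had been named for a large DEX change in the same NaCl mice, so their number cannot be read against that share. The differences on the log2 scale are given as the response in FeSO4 mice minus that in NaCl mice. Among PXR and CAR targets they were -4.86 for Cyp2b10 (edgeR FDR 3.4e-06), -2.01 for Alas1 (1.6e-04), -1.77 for Gstm3 (0.049) and -0.87 for Cyp3a11 (0.036). Cyp2b10 had 562, 1199 and 1014 normalized counts in FeSO4/DEX mice and 1285, 1002 and 803 in FeSO4/PBS mice, so that the rise of NaCl mice was not seen there. The call of Cyp3a11 was lost in 7 of 18 alternatives and that of Gstm3 in 12 of 18.

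Thrsp, a thyroid hormone target, differed by -2.53 (edgeR FDR 0.0022), the coregulator genes Lpin1 and Ep300 by -2.34 (3.5e-04) and -0.985 (0.017), and Cyp27a1 by -0.791 (0.0082). In the other direction were Srebf1 with 1.70 (edgeR FDR 0.0017), Rarg with 2.31 (0.0014), Nr1d1 with 2.49 (0.0068) and Fgfr4, the hepatocyte receptor of the intestinal bile acid signal, with 0.572 (0.050). Nr1d1 had 148, 412 and 272 normalized counts in NaCl/DEX mice beside 1900, 1058 and 1854 in NaCl/PBS mice, and 1884, 2269 and 1775 in FeSO4/DEX beside 1183, 2260 and 2625 in FeSO4/PBS mice. The call of Fgfr4 was lost in 13 of 18 alternatives.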

How the results depend on the processing

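Of 940 LFCs of the 10 receptor genes recomputed under alternatives, 881 kept their direction and their side of the threshold, 4 lost and 31 gained a call, and 24 changed sign. Beyond an LFC of 1 in size, 5, 0 and 4 of the 10 were called after FeSO4, after DEX in NaCl mice and after FeSO4 in DEX mice. The DEX response in NaCl mice called 4 with DESeq2, 5 without a filter on low counts and 5 with the compared libraries alone, and 2 to 5 with each mouse left out (5 without FeSO4/PBS mouse 1, 4 without FeSO4/PBS mouse 2). For the difference between DEX responses there were 2 with DESeq2, 1 with library size alone, 2 without a filter, and 0 to 2 with each mouse left out (Nr1i2 and Ppara without FeSO4/PBS mouse 1, Nr1i3 without NaCl/PBS mouse 3). Why these counts moved was not tested.

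All sign changes were of LFCs that were not called. In the DEX response of NaCl mice, Nr1h3 was -0.11 with library size alone, and Ppara was 0.0137 with DESeq2, 0.0110 with its size factors and 0.0050 with the compared libraries alone. After FeSO4 in DEX mice, Rxra was -0.0435 with library size alone. With each mouse left out, the LFC of Esr1 after FeSO4 ran from -0.44 to 0.0371. In the DEX response of NaCl mice, Nr1h3 ran from -0.0029 to 0.085, Nr1h4 from -0.17 to 0.0111 and Ppara from -0.0786 to 0.10. In that of FeSO4 mice, Nr1i3 ran from -0.25 to 0.0946, Nr1h4 from -0.0429 to 0.0753, Nr0b2 from -0.19 to 0.70 and Esr1 from -0.0832 to 0.41. Nr1i2 after FeSO4 in DEX mice ran from -0.0742 to 0.0259, and the difference between DEX responses for Thrb from -0.30 to 0.0317.

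Mice with the same replicate number deviated together little (r -0.09 to 0.13, over 0.1 in 2 of 18 pairs). With different numbers, r was over 0.1 in 1 of 36 pairs. Both same-number values over 0.1 were between NaCl/PBS and NaCl/DEX mice (0.129 for replicate 1 and 0.109 for replicate 2, beside 0.052 for replicate 3). Whether the numbers pair mice cannot be told from these values. With the replicate number as a block, 8 receptor genes were called after FeSO4 and 7268 genes in all in place of 7553, and no count of receptor genes moved by over 1.5 times. For the other named genes, 91 calls were recomputed 1715 times, an alternative added after seeing the data, with 130 calls lost and none reversed.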
